A study of Macaca mulatta with 33 samples.

Results

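Transcripts of the phase II conjugation enzymes were compared in liver between 4 groups of 3-year-old macaques that differed in their mothers' diet and in their own diet. The enzymes were taken by gene symbol, as every gene of the deposited table whose name starts with UGT1A, UGT2, GSTA, GSTM, GSTO, GSTP, GSTT, GSTZ, GSTK, MGST or SULT. That gave 27 of the 34882 genes in the table, by a rule on names that used no measured value. Groups are named maternal diet/postweaning diet, with CD for the control diet and WSD for the western-style diet, and the maternal diet covered gestation and lactation. There were 10 CD/CD animals (control diet throughout), 10 WSD/CD animals (western-style diet in the mother, control diet after weaning), 6 CD/WSD animals (the reverse) and 7 WSD/WSD animals (western-style diet throughout). By the organism field these are Macaca mulatta (rhesus macaque), by the design text Japanese macaques, a close relative. Each animal gave 1 library, and p-values treat the animals as independent.

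Phase II enzymes attach a water-soluble group to a drug, hormone, bile pigment or reactive metabolite, so that it can be carried out of the cell and cleared in bile or urine. UDP-glucuronosyltransferases (UGT) transfer glucuronic acid in the endoplasmic reticulum, glutathione S-transferases (GST) couple glutathione to electrophiles in the cytosol, microsomal glutathione S-transferases (MGST) sit in membranes, and cytosolic sulfotransferases (SULT) transfer a sulfonate group from the donor PAPS. The liver is a main site of all these reactions, and its hepatocytes carry most of the enzymes.

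The values are FPKM, fragments per kilobase of transcript relative to all mapped fragments, so levels of different genes can be set beside each other per length. None of the 27 genes had a missing value. Of the 27, 18 had a mean of at least 0.5 FPKM over the 33 livers and were tested, and 16 reached 1 FPKM. Neither the sequences nor the genome build of these genes are used here.

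Summed over their members, the mu-class GSTs gave 39.0% of the mean FPKM of all 27 genes, the alpha class 22%, the sulfotransferases 14.4%, UGT1A 13.4%, UGT2 5.35%, the omega, pi, theta, zeta and kappa GSTs 4.27% together and the microsomal GSTs 1.67%. In most families 1 gene carried nearly the whole sum. GSTM4, a mu-class transferase, had the highest mean of all members at 820 ± 278 FPKM (SD, n = 33) and ranked 60 among all genes of the table. GSTA2, an alpha-class transferase that in human liver also reduces lipid hydroperoxides, followed at 464 ± 185. UGT1A1, which in human conjugates bilirubin, stood at 281 ± 155. SULT2A1, the sulfotransferase of dehydroepiandrosterone and bile acids, stood at 187 ± 60.4.

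Below these came UGT2B7, which in human glucuronidates morphine and steroids, at 83.0 FPKM, SULT1C4, known in human mainly from fetal tissue, at 65.4, and SULT1A3, known in human as the catecholamine sulfotransferase, at 48.4. GSTO1, an omega-class enzyme that acts on arsenic species and on mixed disulfides, had a mean of 43.9, MGST1, an abundant protein of the endoplasmic reticulum and outer mitochondrial membrane, 33.3, and UGT2A3 29.7. GSTZ1, the maleylacetoacetate isomerase of tyrosine breakdown, had a mean of 18 FPKM, GSTP1, the pi-class enzyme that in human liver marks bile duct cells more than hepatocytes, 16.8, and GSTT1, a theta-class enzyme that acts on small halogenated compounds, 7.32. GSTK1, the kappa-class enzyme of mitochondria and peroxisomes, had 2.70, MGST2, which in human can form leukotriene C4, 1.57, and SULT1B1, which sulfates thyroid hormone, 1.44. GSTT2B (0.890) and SULT4A1 (0.621), the latter best known from brain, passed the filter below 1 FPKM.

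The 9 members that were not tested had means of 0.424 FPKM or less. MGST3, GSTO2, GSTM3, UGT2A1 and GSTA4 were above 0 in some livers. SULT1C2, SULT1C3 and SULT2B1 were listed at 0 in 32 of 33 livers and SULT6B1 in all 33.

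**Figure D1:**
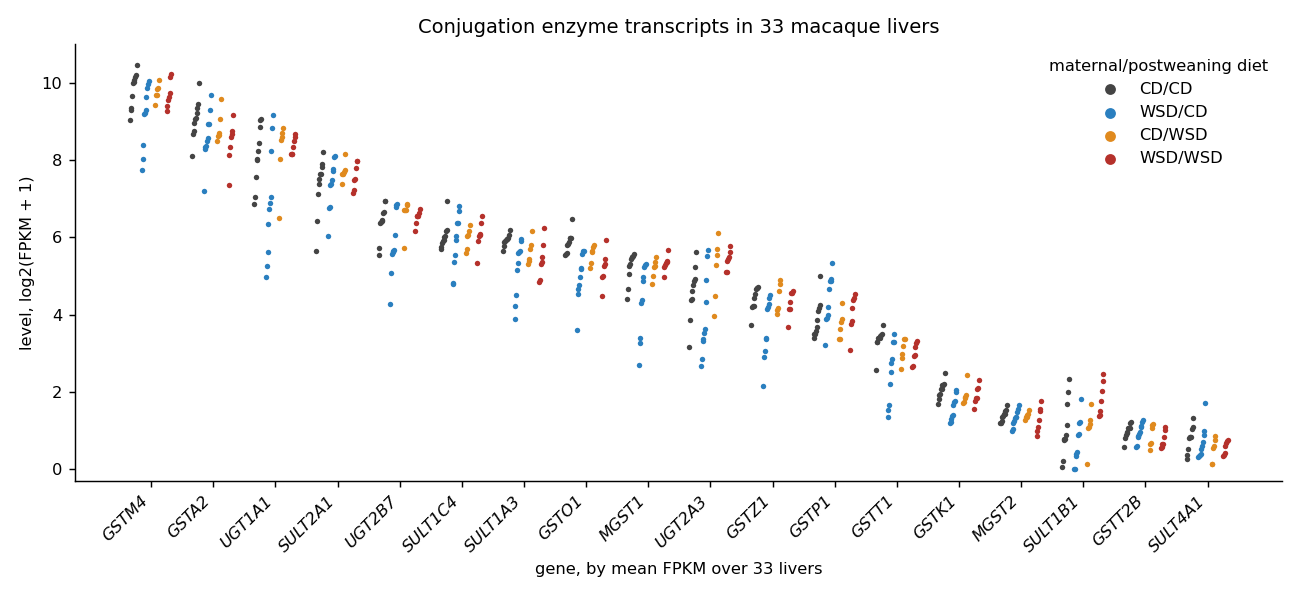
Level of the 18 tested genes in each of the 33 livers as log2(FPKM + 1), with 1 point per liver, coloured by diet group and ordered by mean. GSTM4 (mean 820 FPKM) and GSTA2 (464) lie highest, SULT4A1 (0.621) lowest, and a few WSD/CD livers lie below all others for UGT1A1, MGST1, GSTT1 and GSTZ1.

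Some of these values may pool several genes. The identifier listed as GSTM4 carries the symbol GSTM5 in a table of Ensembl identifiers, and RefSeq lists further copies (GSTM1, GSTM2, GSTM5, GSTA1, GSTA3, UGT2B4 and UGT2B33) that are not under those names among the 27. Fragments shared between near-identical copies could have been counted at 1 of them, so GSTM4, GSTA2 and UGT2B7 are uncertain as single genes. In human the UGT1A enzymes come from 1 locus whose alternative starts join shared exons, and UGT1A1 was the only row of that family, so isoforms cannot be separated. SULT1A3 was the only SULT1A row. A row without a name in the table, which the table of identifiers calls SULT1E1, an estrogen sulfotransferase, had a mean of 1.5 FPKM and was not a member by the rule. RefSeq places GSTO1 beside GSTO2 and GSTT1 beside GSTT2B, with 0 coding genes between.

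The members varied between livers about as much as other genes. The coefficient of variation over the 33 livers had a median of 34% in the 18 tested members and 35.2% in all 12497 tested genes. UGT2A3 (55.5%) and UGT1A1 (55.2%) varied most among members above 2 FPKM. UGT1A1 ranged 18.8-fold, from 30.5 to 574 FPKM, both ends within WSD/CD. MGST2 varied least, at 23.1%.

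The libraries did not stand equally. Mitochondrial transcripts took 7.12% ± 5.60 (SD) of the summed FPKM of WSD/CD livers, beside 2.35% ± 0.736 for CD/CD, 1.82% ± 0.413 for WSD/WSD and 2.39% ± 1.09 for CD/WSD. In WSD/CD the share reached 15.8%, 11.5%, 16.1% and 7.58% in replicates 6, 7, 9 and 10, whose animal numbers exceed 34000. It was 6.94% and 5.06% in WSD/CD replicates 2 and 3, also above the highest CD/CD share of 3.46%. The leading digits of the animal numbers (30, 31, 33 or 34), which the labels do not explain, were spread unevenly over the groups: the 34-numbered animals are all WSD/CD, the 33-numbered are CD/CD or WSD/CD, and of the 31-numbered 1 is CD/CD. Hepatocyte markers were abundant in every liver, with a summed level of at least 16415 FPKM, and red blood cell markers summed to at most 2.67. The hepatocyte sums lean on HP and SERPINA1, the largest of these markers, with means of 18805 and 14507 FPKM. In such bulk tissue, fewer cells of a type and less RNA per cell cannot be told apart. The deposited values do not give the depth. Steps between the lowest values gave a rough relative depth of 0.525 to 1.67.

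The effect of the maternal diet under a control diet after weaning is the comparison of WSD/CD with CD/CD. GSTO1, GSTT1, MGST1, GSTZ1, SULT1A3 and GSTK1 were lower in WSD/CD livers, at 0.543 to 0.714 times the CD/CD level on the FPKM + 1 scale. No member was higher. Thus 6 of the 18 tested members passed an adjusted p of 0.05 (limma, Benjamini-Hochberg over all genes), where 9.55% of all tested genes did and 8.03% were lower. The members' median log2 fold change was -0.53 beside -0.15 for all genes, and 16 of 18 were negative beside 71.5% of all genes.

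GSTO1 ran from 45.5 through a median of 56.5 to 88.1 FPKM in CD/CD and from 11.2 through 32.9 to 49.3 in WSD/CD. All 10 WSD/CD livers lay below the CD/CD mean, although the ranges overlapped at their edges. Its log2 fold change was -0.88 ± 0.19 (SE, adjusted p = 0.0133). GSTT1 ran from 4.93 through 9.55 to 12.3 FPKM in CD/CD and from 1.54 through 5.21 to 10.2 in WSD/CD, with 9 of 10 WSD/CD livers below the CD/CD mean and a log2 fold change of -0.86 ± 0.22 (adjusted p = 0.0211). GSTK1 lay between 2.21 and 4.64 (median 3.21) in CD/CD and between 1.27 and 3.14 (median 1.89) in WSD/CD. All 10 of its WSD/CD values were under the CD/CD mean (log2 fold change -0.49 ± 0.12, adjusted p = 0.0215).

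SULT1A3 was among the steadiest members in CD/CD, from 49.0 through 60.6 to 71.4 FPKM, and spread from 13.8 through 43.5 to 61.1 in WSD/CD (log2 fold change -0.74 ± 0.21, adjusted p = 0.0326). GSTZ1 ran from 12.4 through 21.4 to 25.1 in CD/CD and from 3.44 through 13.1 to 21.6 in WSD/CD (-0.77 ± 0.22, adjusted p = 0.0337). MGST1 ran from 20.3 through 40.6 to 46.4 in CD/CD and from 5.52 through 24.1 to 38.9 in WSD/CD (-0.85 ± 0.25, adjusted p = 0.0356). For MGST1 and GSTZ1, 7 and 8 of 10 WSD/CD livers fell under the CD/CD mean, so the upper part of both groups was shared.

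The largest members did not pass. UGT1A1 ran from 116 through 279 to 535 FPKM in CD/CD and from 30.5 through 112 to 574 in WSD/CD, so the lowest and the highest value of the whole study stood in the same group (log2 fold change -1.20 ± 0.42, adjusted p = 0.0600). GSTM4 had a log2 fold change of -0.68 ± 0.24 (adjusted p = 0.0641), UGT2B7 of -0.57 ± 0.24 (0.117), UGT2A3 of -0.60 ± 0.34 (0.219) and GSTA2 of -0.46 ± 0.25 (0.205). SULT2A1 (0.02 ± 0.26, adjusted p = 0.959), SULT1C4 (-0.17 ± 0.22, 0.605) and MGST2 (-0.08 ± 0.10, 0.621) had estimates near 0. GSTP1 was the one member of this size with a positive estimate, 0.49 ± 0.23 (adjusted p = 0.144).

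The lowest UGT1A1 and MGST1 values stood in WSD/CD replicates 6, 7, 9 and 10. In that order UGT1A1 was 30.5, 37.5, 47.7 and 79.6 FPKM and MGST1 was 5.52, 8.66, 9.58 and 18.6. GSTM4 was 213, 261, 336 and 593 in the same order. GSTP1 was high in these 4, at 28.2, 28, 39.6 and 29 FPKM, against a CD/CD median of 12.7. Replicate 8, the other 34-numbered animal, had a mitochondrial share of 1.98% and values near the controls, with UGT1A1 at 297, MGST1 at 36.3 and GSTP1 at 13.8. Low values were not limited to the 34-numbered animals: the 2 30-numbered WSD/CD animals had UGT1A1 at 118 and 106, GSTO1 at 35.3 and 24.5 and GSTK1 at 1.32 and 1.63 FPKM, and replicate 3 had UGT1A1 at 130. The mitochondrial share was 2.95% and 6.94% in the 30-numbered WSD/CD replicates 1 and 2, and 5.06% in replicate 3.

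Other cell markers also differed between WSD/CD and CD/CD. In the 34-numbered animals hepatocyte markers summed to 16415 to 42489 FPKM and stellate cell and fibroblast markers to 183 to 319. Of 13 hepatocyte markers, 5 were lower in WSD/CD, and their summed level ran from 16415 to 59394 FPKM there (median 40143) against 42314 to 81512 in CD/CD (median 55376). Of 12 stellate cell and fibroblast markers, 7 were higher, with a summed level of 128 to 319 FPKM against 104 to 190. Of 5 tested bile duct markers 1 was higher (summed level 13.2 to 33 FPKM against 10.8 to 22.2), and KRT7 and CFTR were at 0.414 and 0.0806 FPKM on average over all livers. The bile duct sum was 15.6 to 18.7 FPKM in the 34-numbered animals, inside the CD/CD range. Its highest value, 33, stood in a 30-numbered WSD/CD animal. The part of these cells in the result was not tested. Without the 5 animals numbered above 34000, 0 of 18 members and 0 of all genes passed in limma (3 members and 999 genes had an unadjusted p under 0.05), and the members' median was -0.15. With the mitochondrial share as a covariate 0 members and 0% of genes passed, and 2 members had an unadjusted p under 0.05. With the number digits as a factor 0 members passed (3 at an unadjusted p under 0.05), beside 0.008% of genes. In a fit of the 2 groups alone 0 members and 0% of genes did (8 members at an unadjusted p under 0.05, smallest adjusted p = 0.0614), with the same fold changes and median (-0.53), and with no filter on low values 3 members did beside 2.83%. Leaving out WSD/CD replicate 6, 7 or 9 alone left GSTO1 as the only member called, beside 1.85%, 1.61% and 1.68% of all genes. Leaving out replicate 10 left 3, beside 4.39%. Leaving out replicate 5 gave 9 lower and 1 higher, GSTP1 (0.62, adjusted p = 0.0446), beside 17.5%.

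Among the animals whose number begins with 30 (2 WSD/CD, 4 CD/CD), 3 members were lower in WSD/CD, where 2.92% of all genes were called and 0.992% were lower: GSTK1 (log2 fold change -0.93), GSTO1 (-0.95) and GSTT1 (-0.82). The members' median there was -0.59 beside -0.04 for all genes, 15 of 18 were negative, and 12 had an unadjusted p under 0.05. Without WSD/CD replicate 2 only 1 passed, and without CD/CD replicate 2 there were 7. Among the 33-numbered animals (3 WSD/CD, 5 CD/CD) 0 members passed, 0 at an unadjusted p under 0.05, beside 0.024% of genes, and the members' median was -0.01. Median-of-ratios scaling moved the median of all genes from -0.15 to -0.01 and left 2 members, GSTO1 (-0.69, adjusted p = 0.0171) and GSTT1 (-0.72, 0.0270), with 6.05% of genes called, 400 of them higher and 356 lower, beside 190 higher and 1003 lower on the deposited values.

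**Figure D2:**
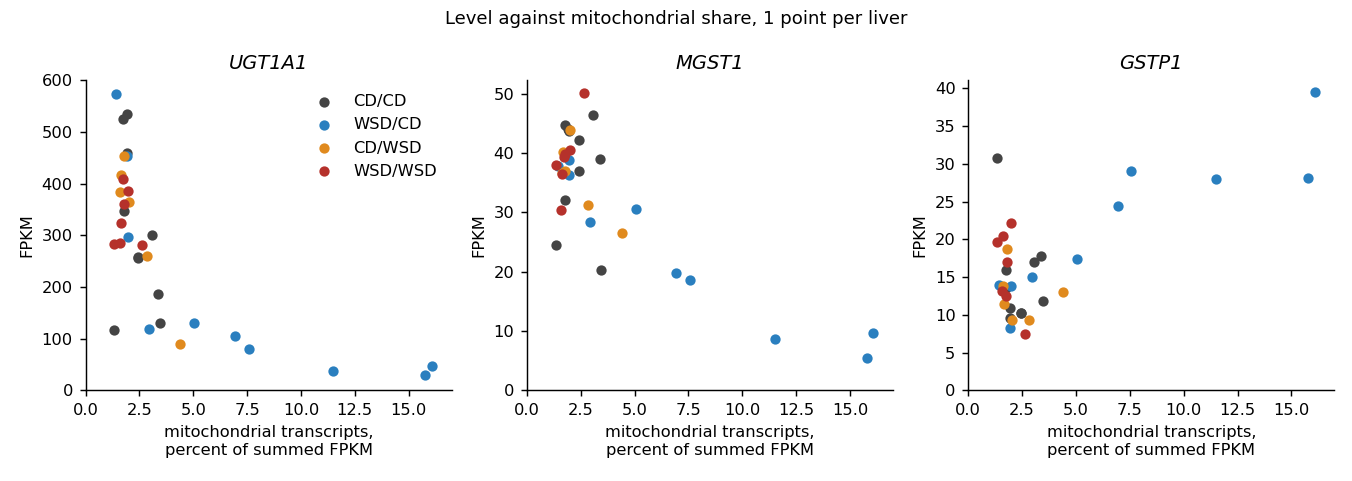
Level in FPKM of UGT1A1, MGST1 and GSTP1 against the mitochondrial share of summed FPKM in percent, with 1 point per liver coloured by diet group. The 3 livers with a share above 11%, all WSD/CD, hold the lowest UGT1A1 (30.5 to 47.7) and MGST1 (5.52 to 9.58) of the study, while GSTP1 there is 28 to 39.6.

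The effect of the postweaning diet in offspring of control-fed mothers is the comparison of CD/WSD with CD/CD. Over all livers 0 of 18 members passed in limma, 0 had an unadjusted p under 0.05, and 0.024% of all genes were called. The members' median log2 fold change was -0.06 beside 0.03 for all genes. The largest estimate was that of UGT2A3, an enzyme that in human glucuronidates bile acids, at 0.59 ± 0.39 (SE, adjusted p = 0.463), from 7.99 through 24.8 to 47.9 FPKM in CD/CD and from 14.5 through 41.5 to 67.6 in CD/WSD. SULT2A1 had 0.38 ± 0.30 (adjusted p = 0.538) and GSTO1 -0.31 ± 0.23 (0.508).

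In WSD/WSD against CD/CD, which differ in both diets, 1 member passed: GSTO1 was lower. It ran from 21.5 through 36.9 to 59.9 FPKM in WSD/WSD, and 6 of 7 livers lay under the CD/CD mean (log2 fold change -0.66 ± 0.21, adjusted p = 0.0348). Of all genes 16.7% were called, 13.2% higher and 3.42% lower, so the members' count was below the background. Their median was -0.11 beside 0.10 for all genes. GSTO1 did not pass when any 1 of 9 animals was left out (WSD/WSD replicates 1, 3, 4, 5 or 6, CD/CD replicates 1, 2, 4 or 5). Over all fits with 1 animal left out its adjusted p reached 0.0765 and its log2 fold change ran from -0.78 to -0.54. In 6 such fits 2 to 3 members passed, where 16.8% to 21.7% of all genes were called. These were without CD/WSD replicate 5, WSD/CD replicate 8, WSD/WSD replicate 7 or CD/CD replicates 6, 8 or 9.

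Other members pointed in different directions without passing. UGT2A3 stood at 0.83 ± 0.37 (adjusted p = 0.109) and SULT1B1 at 0.76 ± 0.28 (0.0578). GSTA2 stood at -0.63 ± 0.27 (adjusted p = 0.0956) and SULT1A3 at -0.51 ± 0.24 (0.124). With median-of-ratios scaling, which moved the median of all genes from 0.10 to -0.01, 3 passed, all lower: GSTA2 (-0.79, adjusted p = 0.0439), GSTO1 (-0.81, 0.00494) and SULT1A3 (-0.66, 0.0338). Of all genes 18.2% were then called, 10.1% higher and 8.16% lower. Without the animals numbered above 34000, 3 members passed, where 21.9% of genes were called. With the mitochondrial share as a covariate 3 passed beside 24.9%, with only these 2 groups in the fit 3 passed beside 27.3%, and with no filter on low values 0 passed beside 6.96%.

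**Figure D3:**
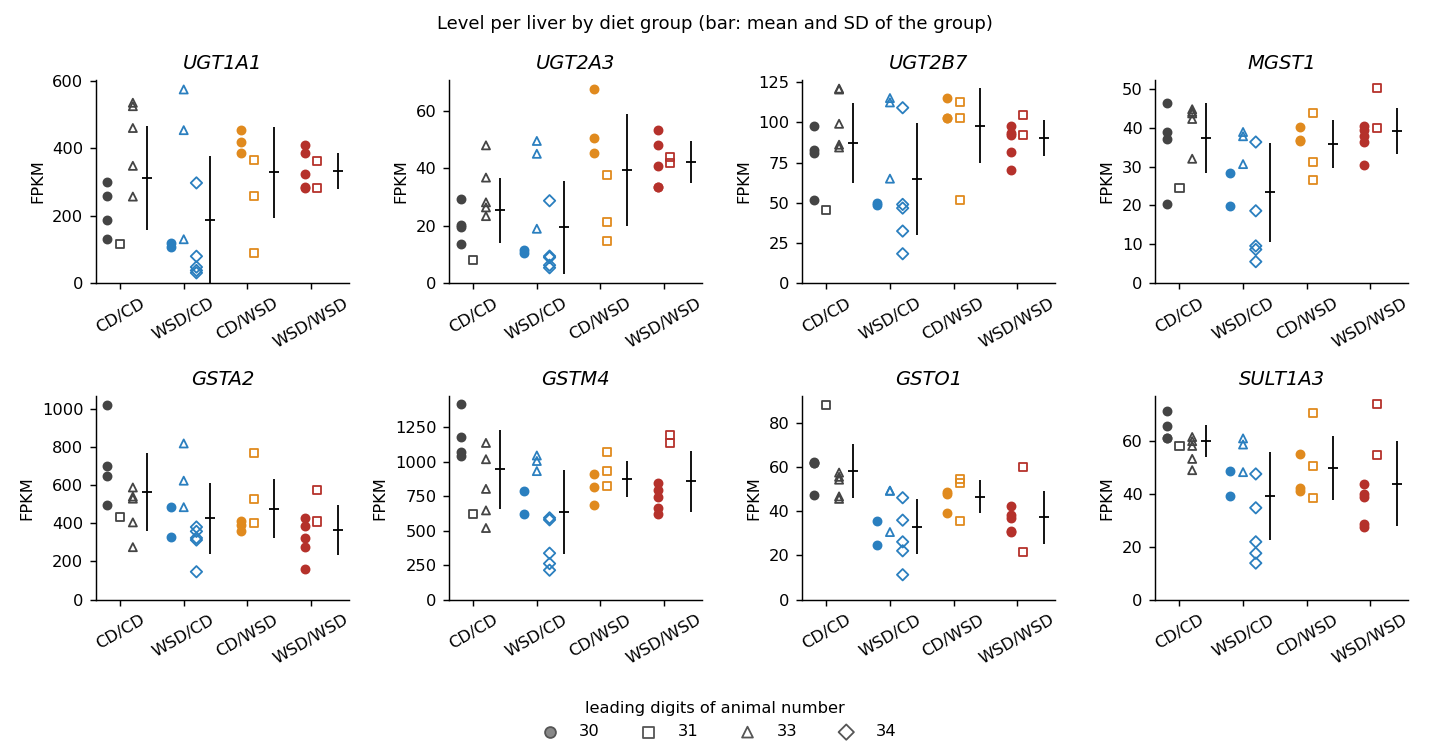
FPKM per liver of 8 genes by diet group, with markers by leading digits of the animal numbers and the bar beside each group its mean and SD. Within the filled circles (30-numbered animals) UGT2A3 is higher and GSTA2, GSTM4 and SULT1A3 lower in both groups weaned to the western-style diet than in CD/CD, and 4 of the 5 34-numbered WSD/CD animals, all but replicate 8, lie low for UGT1A1 and MGST1.

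Only the 30-numbered animals included several of CD/CD (4), CD/WSD (3) and WSD/WSD (5). Within them both groups weaned to the western-style diet differed from CD/CD in more members, and in more of all genes, than over all livers. UGT2A3 and UGT1A1 were higher and GSTA2, GSTM4, SULT1A3 and GSTK1 lower in both. Both comparisons share the CD/CD animals. In CD/WSD 8 of 18 members were called, 2 higher and 6 lower, where 39.1% of all genes were called, 29.3% higher and 9.75% lower. The total of 8 was near the background. In WSD/WSD 11 were called, 3 higher and 8 lower, where 44.7% of all genes were called, 33.3% higher and 11.4% lower. The members' medians were -0.17 and -0.26, beside 0.14 and 0.17 for all genes.

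Of the glucuronosyltransferases, UGT2A3 in the 30-numbered animals was 20.1, 13.6, 19.6 and 29.3 FPKM in CD/CD, 67.6, 45.2 and 50.6 in CD/WSD and 40.7, 53.3, 48.0, 33.5 and 33.5 in WSD/WSD. All 8 animals weaned to the western-style diet lay above all 4 controls of these numbers. The 33-numbered controls, at 23.3 to 47.9 FPKM, overlapped the western-fed values. The log2 fold changes were 1.39 ± 0.24 (adjusted p = 0.000622) in CD/WSD and 1.01 ± 0.21 (0.0017) in WSD/WSD, ratios of 2.61 and 2.01. UGT1A1 was 257, 130, 186 and 300 FPKM in CD/CD, 453, 384 and 417 in CD/WSD and 283, 410, 386, 286 and 323 in WSD/WSD. The CD/WSD values lay above all controls of these numbers and the WSD/WSD values overlapped them (log2 fold changes 1.0 ± 0.24, adjusted p = 0.00588, and 0.68 ± 0.21, 0.02). In the 33-numbered controls UGT1A1 ran from 257 to 535 FPKM, which overlapped both western-fed groups. UGT2B7 had 0.47 ± 0.18 (adjusted p = 0.0561) and 0.17 ± 0.16 (0.410).

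The abundant glutathione transferases went the other way in the same animals. GSTA2 was 702, 498, 646 and 1024 FPKM in CD/CD, 391, 411 and 360 in CD/WSD and 428, 324, 384, 162 and 278 in WSD/WSD. GSTM4 was 1176, 1071, 1039 and 1416 FPKM in CD/CD, 816, 686 and 914 in CD/WSD and 748, 846, 797, 618 and 667 in WSD/WSD. For both genes every animal weaned to the western-style diet lay under every control of these numbers. In the 33-numbered controls GSTA2 ran from 275 to 588 FPKM and GSTM4 from 519 to 1137. Both ranges overlapped both western-fed groups. How many of all genes were separated in this way was not counted. GSTA2 had log2 fold changes of -0.84 ± 0.31 (adjusted p = 0.0477) and -1.21 ± 0.27 (0.00317), and GSTM4 of -0.54 ± 0.17 (0.0202) and -0.67 ± 0.15 (0.00241).

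Of the smaller transferases, GSTK1 was lower in both groups (-0.46 ± 0.13, adjusted p = 0.0158, and -0.42 ± 0.12, 0.0107). GSTO1 and GSTT1 passed in WSD/WSD (-0.69 ± 0.14, adjusted p = 0.00186, and -0.56 ± 0.14, 0.00726), with estimates of -0.35 ± 0.16 and -0.28 ± 0.16 in CD/WSD (adjusted p = 0.103 and 0.207). MGST1, MGST2, GSTZ1 and GSTP1 passed in neither (GSTZ1 passed in WSD/WSD after median-of-ratios scaling, at -0.58, adjusted p = 0.0483).

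Among sulfotransferases, SULT1A3 was 71.4, 65.6, 61.2 and 61.1 FPKM in CD/CD, 42.4, 41.0 and 55.1 in CD/WSD and 38.7, 40, 43.8, 27.5 and 28.6 in WSD/WSD, again without overlap in these animals (-0.49 ± 0.17, adjusted p = 0.0385, and -0.86 ± 0.15, 0.000597). The 33-numbered controls ran from 49.0 to 61.6 FPKM. SULT1B1, at low levels, was 0.847, 0.0440, 0.722 and 0.730 in CD/CD and 1.58, 2.41, 3.06, 3.84 and 4.52 in WSD/WSD, and was higher there (1.35 ± 0.24, adjusted p = 0.000613). In CD/WSD it was 2.20, 1.14 and 1.08 (0.65 ± 0.27, adjusted p = 0.0754). For SULT1B1 the 33-numbered controls, at 0.681 to 4.06 FPKM, overlapped both western-fed groups. SULT2A1 and SULT1C4 passed in neither group. GSTT2B and SULT4A1, named after their values were seen because their mean is under 1 FPKM, were lower in both (GSTT2B -0.47 and -0.42, SULT4A1 -0.72 and -0.46).

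**Figure D4:**
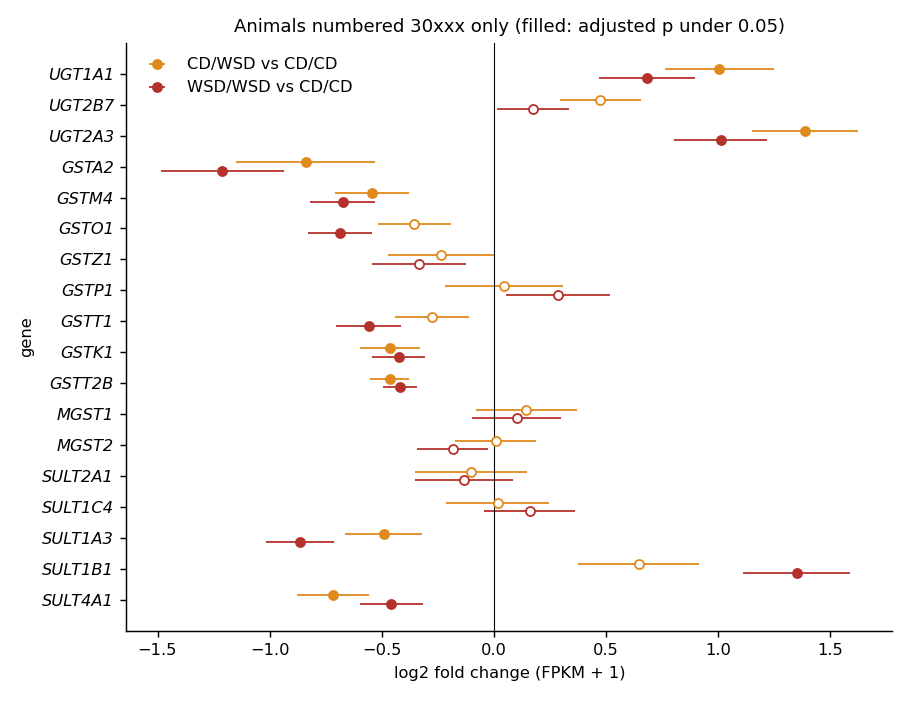
Log2 fold changes (FPKM + 1) of the 18 tested genes against CD/CD in the 30-numbered animals, for CD/WSD (3 animals) and WSD/WSD (5) against 4 controls, with bars for the SE and filled points for an adjusted p under 0.05. UGT1A1, UGT2A3 and SULT1B1 lie right of 0, and GSTA2, GSTM4, SULT1A3, GSTO1, GSTT1 and GSTK1 left of it, in both groups.

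These counts depend on few animals. Leaving out 1 animal at a time gave 4 to 9 members in CD/WSD and 9 to 12 in WSD/WSD. In CD/WSD there were 5 without CD/WSD replicate 1 and 4 without CD/WSD replicate 2, beside 31% and 30.8% of all genes. GSTA2 in CD/WSD passed in 3 of 14 such fits and SULT1A3 in 8 of 14, while UGT1A1 and UGT2A3 passed in all 14. In WSD/WSD, UGT1A1 passed in 12 of 14. With median-of-ratios scaling the counts were 2 higher and 7 lower in CD/WSD and 2 higher and 9 lower in WSD/WSD, where UGT1A1 no longer passed (0.42, adjusted p = 0.144), and the median of all genes moved from 0.14 and 0.17 to -0.02 in both.

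The mitochondrial share separated the 30-numbered groups, at 2.44% to 3.46% in CD/CD against 1.62% to 1.78% in CD/WSD and 1.34% to 1.98% in WSD/WSD. Its part in these differences was not tested within the 30-numbered animals. Markers of other cells also separated them. Summed endothelial markers were 37.5 to 48.6 FPKM in the 4 CD/CD animals against 90.8 to 102 in CD/WSD and 83.3 to 95.4 in WSD/WSD. Kupffer cell and macrophage markers were 471 to 611 against 801 to 925 and 663 to 804, and stellate cell and fibroblast markers 119 to 151 against 170 to 205 and 169 to 189. Hepatocyte markers overlapped (42314 to 60860 against 49298 to 53560 and 43007 to 57423). The part of these cells in the result was not tested. The 31-numbered animals include 1 CD/CD animal, replicate 5, so estimates among them rest on 1 control. That liver stood apart from the other controls in GSTO1, GSTP1 and GSTT1, but not in GSTA2 (431 FPKM) or GSTM4 (623). With that animal assumed to vary like the others, 0 members passed in either comparison, where 0.168% and 0.136% of genes were called (3 and 5 members at an unadjusted p under 0.05). There GSTA2 and GSTM4 had positive estimates (GSTA2 0.34 and 0.17, GSTM4 0.59 and 0.90), GSTO1 negative ones (-0.90 and -1.27) and UGT2A3 positive ones (1.40 and 2.29). Endothelial markers in these animals ran the other way, 68.9 FPKM in the control against 22.2 to 28.3.

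With the leading digits of the animal number as a factor in all 33 livers, 2 members passed in CD/WSD, UGT2A3 (1.37, adjusted p = 0.00251) and GSTT2B (-0.34, 0.0295), where 34.2% of genes were called. In WSD/WSD 7 passed, where 44.2% of genes were called. UGT2A3 (1.47, adjusted p = 0.000378), SULT1B1 (1.28, 0.000282) and UGT1A1 (0.96, 0.0483) were higher. GSTA2 (-0.73, 0.0320), GSTO1 (-0.70, 0.0176), SULT1A3 (-0.56, 0.0329) and GSTT2B (-0.36, 0.00942) were lower.

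The postweaning diet in offspring of western-diet mothers is the comparison of WSD/WSD with WSD/CD. UGT1A1, UGT2A3, UGT2B7, MGST1, GSTZ1, GSTK1 and SULT1B1 were higher in WSD/WSD. These 7 of 18 stand beside 44% of all genes called, 37.9% higher and 6.14% lower, so the members' share was near the background. Their median was 0.30 beside 0.26 for all genes. UGT1A1 ran from 281 through 323 to 410 FPKM in WSD/WSD, a narrow range beside the 30.5 to 574 of WSD/CD, and all 7 livers lay above the WSD/CD mean on the log scale (log2 fold change 1.46 ± 0.46, adjusted p = 0.0124). UGT2A3 ran from 33.5 through 41.9 to 53.3 against 5.35 through 11 to 49.5 (1.44 ± 0.37, adjusted p = 0.00338). SULT1B1 ran from 1.58 through 2.41 to 4.52 against 0 through 0.609 to 2.51 (1.10 ± 0.28, adjusted p = 0.00320).

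MGST1 had a log2 fold change of 0.94 ± 0.28 (adjusted p = 0.00795), UGT2B7 of 0.66 ± 0.27 (0.0441), GSTZ1 of 0.64 ± 0.25 (0.0349) and GSTK1 of 0.36 ± 0.13 (0.0323). GSTM4 (0.57 ± 0.27) and GSTT1 (0.50 ± 0.24) did not pass (adjusted p = 0.0829 and 0.0834). Without the 5 animals numbered above 34000, SULT1B1 alone passed (1.25, adjusted p = 0.0410), with 3.46% of genes called. With the mitochondrial share as a covariate 0 members passed in limma, 1 at an unadjusted p under 0.05, beside 0.096% of genes. With the number digits as a factor 4 passed beside 40.9%, with only these 2 groups in the fit 4 beside 36%, and with no filter 4 beside 24.2%. Among the 30-numbered animals 6 passed, 5 higher and 1 lower, where 41.5% of genes were called, 31% higher and 10.5% lower. Scaling by median of ratios moved the median of all genes from 0.26 to 0, with 35.5% of genes called, 18.7% higher and 16.8% lower, and left UGT1A1, UGT2A3, MGST1 and SULT1B1 higher and GSTT2B lower. Leaving out WSD/WSD replicate 6 or 7, or WSD/CD replicate 6, 7 or 9, left 4 members, beside 37.1% to 43.7% of all genes.

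**Figure D5:**
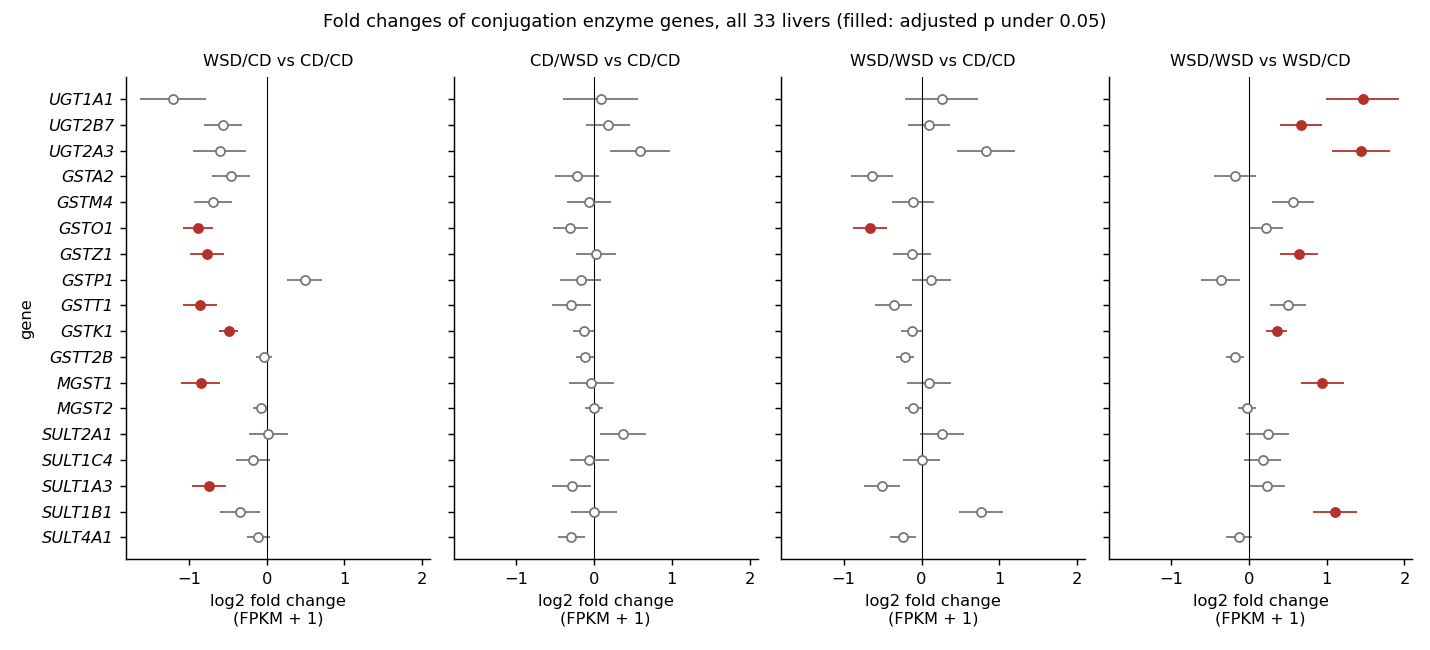
Log2 fold change (FPKM + 1) of the 18 tested genes in 4 comparisons over all 33 livers, with bars for the SE and filled points for an adjusted p under 0.05. The filled points are 6 genes left of 0 in WSD/CD vs CD/CD, 0 in CD/WSD vs CD/CD, GSTO1 in WSD/WSD vs CD/CD and 7 genes right of 0 in WSD/WSD vs WSD/CD.

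The maternal diet under a western-style postweaning diet, WSD/WSD against CD/WSD, gave 0 members and 0 genes in limma. At an unadjusted p under 0.05 there were 1 member, SULT1B1 (0.76 ± 0.32), and 307 genes. The interaction of both diets also gave 0 members and 0 genes, so no member was shown to respond differently to the postweaning diet by maternal diet. At an unadjusted p under 0.05 there were 5 members (UGT1A1, MGST1, GSTT1, GSTK1 and SULT1B1) and 2453 genes. The largest interaction estimate was that of UGT1A1, 1.38 ± 0.67 on the log2 scale (adjusted p = 0.253).

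Genes that supply, regulate or follow conjugation were counted in the same comparisons, where 8.03% of all genes were lower in WSD/CD against CD/CD, and 37.9% higher and 6.14% lower in WSD/WSD against WSD/CD. Of 13 tested regulators, 4 stood below CD/CD in WSD/CD, among them HNF4A, a hepatocyte master factor (-0.63), and NR1I3, the receptor CAR (-0.59), and 11 were higher in WSD/WSD than in WSD/CD, among them NR1I2, the xenobiotic receptor PXR (1.42). Of 8 genes that make or carry UDP-glucuronic acid or PAPS, 1 was lower in WSD/CD, the transporter SLC35B1 (-0.44), and 5 were higher in WSD/WSD than in WSD/CD, among them UGP2 (1.68) and UGDH (0.79), enzymes on the route to UDP-glucuronic acid. Of 8 conjugate transporters, 0 passed in WSD/CD against CD/CD and 6 were higher in WSD/WSD than in WSD/CD, among them ABCC2, the canalicular export pump (1.24), and SLC22A7 (2.00). Without the animals numbered above 34000, 0 genes of these 3 lists passed in WSD/CD against CD/CD, and 1 regulator in WSD/WSD against WSD/CD.

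Of 9 genes of glutathione synthesis and turnover, the synthetase GSS stood below CD/CD in WSD/CD (-0.51). In WSD/WSD against WSD/CD 3 were higher (GCLM, GSR and GSS) and 2 lower (CBS and GGT5), 5 of 9 beside 44% of all genes called. Of 12 tested other conjugating enzymes, 2 were below CD/CD in WSD/CD, among them the methyltransferase TPMT (-0.43), and 5 were higher in WSD/WSD than in WSD/CD. Without the animals numbered above 34000, 0 genes of either list passed in either of these comparisons. In WSD/WSD against CD/CD, where 16.7% of all genes were called, NR1I2 (1.03), NR1H4 (0.74), SLC22A7 (1.18) and HPGDS, a sigma-class glutathione transferase (0.60), were higher, and CBS, which feeds cysteine supply, was lower (-0.72). In CD/WSD against CD/CD no gene of these 5 lists passed, where 0.024% of all genes did.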

How the data were processed

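RNA was extracted with the RNeasy Mini kit, made into directional mRNA libraries with a Swift kit and sequenced as read pairs on a NovaSeq, per the labels' protocols. Cufflinks, SAMtools and GSNAP are named in the submitters' processing notes, and the genome build is not given in the sources used here. A single deposited table by the authors holds FPKM of 34882 genes. Its 33 columns carry the animal numbers of the sample titles, and all were matched. A value of 999999999 was treated as missing (15 genes, none a member). FPKM are not counts and hold no total depth.

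From these values log2(FPKM + 1) was tested with limma 3.58.1 (trend) in R 4.3.3, on 12497 genes with a mean of at least 0.5 FPKM and no missing value. All 33 livers entered 1 model of 4 group means with 29 residual degrees of freedom, with Benjamini-Hochberg adjustment over all genes and a threshold of 0.05. The scale understates changes of low genes. The test was checked on simulated data with independent genes and the same spread in every group. That check does not cover a wider spread in 1 group, as in WSD/CD for MGST1, or the number digits. Symbols came from the table and, where blank, from a table of Ensembl identifiers. Named members have a mean of at least 1 FPKM and are among the 3 highest of their family, pass in a comparison, or have one of the 2 smallest p-values of a comparison, which took all 16.

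Replicate numbers follow sample order within a group. The rule for the members uses gene names alone, but this enzyme group and the gene lists were chosen with earlier results of these data known. Alternatives were a pseudocount of 0.1, no filter, median-of-ratios scaling, only the groups compared, the leading digits of the animal number as a factor or as subsets, leaving out animals numbered above 34000, and covariates for Y-linked genes (9) or the mitochondrial share (13 genes). Leaving out single animals, and scaling within the 30-numbered animals, were added after seeing the data. Lists of deconjugating enzymes, NRF2 targets and markers of hepatocytes, pericentral cells, stellate cells, bile duct, macrophages, endothelium, T and NK cells and red blood cells were also counted. Some genes of the lists are not reported by name here.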

Additional observations from a re-analysis of the deposited data

Results flagged for a closer look

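In 64 sets of 1 member in 1 diet group, the highest or lowest liver was tested for standing apart from the rest of its group on the log2 scale (Dixon's criterion). It did so in 7 sets, and chance alone gives about 1 in 20. In CD/CD, replicate 5, the only control whose number begins with 31, stood apart in 3 genes: GSTO1 was high at 88.1 FPKM (the other 9 controls reached 62.2), GSTP1 was high at 30.7 (the others reached 17.8) and GSTT1 was low at 4.93 (the others began at 8.74). The same liver had the highest summed hepatocyte markers of all 33 (81512 FPKM). Replicate 8 of CD/CD was high in SULT1C4, at 121 FPKM. In CD/WSD, replicate 5 was low in UGT1A1 (90.1 FPKM) and UGT2B7 (51.6), and its mitochondrial share, 4.41%, was the highest of its group. Replicate 4 of CD/WSD was high in GSTK1, at 4.42 FPKM. Without CD/CD replicate 5 the GSTO1 difference between WSD/WSD and CD/CD no longer passed.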

How the results depend on the processing

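No paired analysis was possible because the labels give no replicate numbers (those used here follow sample order within a group) and the animal numbers pair no animals. The number of members called in WSD/CD against CD/CD (6) became 3 with no filter on low values or within the 30-numbered animals, 2 with median-of-ratios scaling, and 0 with only the groups compared, with the number series as a factor, without animals above 34000, within the 33-numbered animals or with the mitochondrial share as a covariate. In CD/WSD against CD/CD (0) it became 2 with the factor and 8 within the 30-numbered animals, beside 34.2% and 39.1% of all genes. In WSD/WSD against CD/CD (1) it was 0 with no filter, 0 within the 31-numbered animals (which, with 1 control, says nothing about stability), 3 with scaling, only the groups compared, without animals above 34000 or with the mitochondrial covariate, 7 with the factor and 11 within the 30-numbered. In WSD/WSD against WSD/CD (7) it was 4 with no filter, only the groups compared or the factor, 1 without animals above 34000 and 0 with the mitochondrial covariate, under which UGT2B7 turned to -0.048. The cause was not tested. Over the fits just listed, the 31-numbered animals apart, the share of all genes called also moved. It ran from 0% to 9.55%, 0.024% to 39.1%, 6.96% to 44.7% and 0.096% to 44% in the 4 comparisons. Leaving out 1 animal gave 1 to 10, 0 to 0, 0 to 3 and 4 to 9 members in these 4 comparisons, and within the 30-numbered animals 1 to 7 (main value 3), 4 to 9 (8), 9 to 12 (11) and 5 to 7 (6); where that left 1 WSD/CD animal, it was assumed to vary like the others. With 1 of the 33 animals left out, 1.61% to 18.6%, 0% to 1.09%, 6.69% to 21.7% and 36.2% to 48.7% of all genes were called in the 4 comparisons. WSD/WSD against CD/WSD and the interaction gave 0 members in every fit run. Of the 14 fold changes of named members called over all livers, 14 were still called with a pseudocount of 0.1, 13 with Y-linked genes as a covariate, 7 with scaling, 7 with no filter, 5 with only the groups compared, 4 with the factor, 9 within the 30-numbered animals, 2 without animals above 34000 and 1 with the mitochondrial covariate. The 31-numbered animals give no value for WSD/CD, the 33-numbered only WSD/CD against CD/CD, and the interaction has no fit of only the groups compared. The depth is unknown, so what it limits cannot be stated.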

Other observations

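Further gene lists were counted. Of all genes, 8.03% were lower in WSD/CD against CD/CD, 13.2% higher and 3.42% lower in WSD/WSD against CD/CD, and 37.9% higher and 6.14% lower in WSD/WSD against WSD/CD. Of 10 tested NRF2 targets outside the members (NRF2 is a transcription factor of the oxidative stress response known to drive several GST genes), TALDO1 was below CD/CD in WSD/CD (log2 fold change -0.49), ME1 (0.59) was higher and OSGIN1 (-0.69) and TKT (-0.53) lower in WSD/WSD than in CD/CD, and 4 were higher in WSD/WSD than in WSD/CD (among them TXNRD1 0.83, ME1 0.61 and PGD 0.53). Of 3 tested deconjugating enzymes, the sulfatase SULF2 was higher in WSD/WSD than in CD/CD (0.63) and the steroid sulfatase STS higher than in WSD/CD (0.62).

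Of 9 tested pericentral markers, the zone in which drug metabolism is concentrated, 0 passed in WSD/CD against CD/CD, 2 were lower in WSD/WSD than in CD/CD, and 1 was higher and 1 lower in WSD/WSD than in WSD/CD. Of 9 tested endothelial markers, 3 were higher in WSD/WSD than in CD/CD. Of 9 tested Kupffer cell and macrophage markers 2 were lower there, while 7 had positive estimates that did not pass (median log2 fold change of the 9, 0.22). None of the 8 tested T and NK cell markers passed in any of the 6 comparisons, and no red blood cell marker reached the filter.

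In the fit of the 30-numbered animals, UGT1A1 was 118 and 106 FPKM and UGT2A3 11.4 and 10.6 in the 2 WSD/CD animals. GSTA2 was 327 and 484 there and GSTM4 623 and 791. For each of these 4 genes both values lay below all 4 CD/CD animals of these numbers. None of the 4 genes passed in that comparison in limma (adjusted p = 0.106, 0.128, 0.235 and 0.0573). SULT1C4 lay above the same controls, at 81.2 to 101 FPKM against 52.7 to 64.1. How many of all genes were separated in either direction was not counted.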
